A study of Caenorhabditis elegans with 2 samples.

Results

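The nlp epidermal antimicrobial peptide genes are a family of small secreted peptides made by the skin of Caenorhabditis elegans, and 10 of the 19973 protein-coding nuclear genes of the annotation are described here by the ELT-3 regions near them. They were taken by name: nlp-24, nlp-25, nlp-26, nlp-27, nlp-28, nlp-29, nlp-30, nlp-31, nlp-33 and nlp-34. A region was counted where its summit lay inside a gene or within 5 kb of it, and a region shared by neighbouring genes was counted once. ELT-3 is a zinc finger protein of the GATA class that acts in the epidermis. Its binding was mapped by chromatin immunoprecipitation and sequencing (ChIP-seq) in mixed-sex L1 larvae, the first larval stage, of strain OP75. Per the labels the strain carries unc-119(ed3) III and wgIs75, a transgene for ELT-3 with GFP and FLAG at its C terminus. Both biological replicates share this genotype and stage. There was no second condition, so the values below describe 1 group and no test between conditions was possible. Whole animals were used, so the lists do not show in which cells a region was bound.

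Epidermal antimicrobial peptides are part of the innate defence of the worm. When a fungus pierces the cuticle, or the epidermis is wounded, a p38 MAP kinase pathway in the epidermis raises the expression of several of these genes, and nlp-29 is the most used reporter of that response. GATA factors bind short DNA words with a GATA core, and ELT-3 is one of those active in the epidermis. The word searched here, called a GATA site below, was GATAA or GATAG after an A or a T, on either strand.

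The proteins encoded by these genes were compared with the family name. They held between 59 and 90 residues, against a median of 329 over all protein-coding genes. Glycine and tyrosine together made up 33.3% (nlp-25) to 56% (nlp-31) of their residues, against a median of 8.31% and a 99th percentile of 24.4% over all genes. Tyrosine ranged from 6.9% to 18.7% in the other 9 proteins and was absent from NLP-26, whose share of glycine was 36.7%. NLP-26 was therefore rich in glycine alone, while the others held both residues.

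All 10 genes lie on chromosome V, at 4 places. The first place is a cluster of 6 genes: nlp-34 (3978825 to 3979134, minus strand), nlp-31 (3980055 to 3980622), nlp-30 (3981980 to 3982741), nlp-29 (3984425 to 3984847), nlp-28 (3987900 to 3988316) and nlp-27 (3989378 to 3989770). Every gene except nlp-34 is on the plus strand, and the gaps between neighbours in the cluster ran from 920 to 3052 bp. The gene nlp-33 (11147346 to 11147737) and the gene nlp-24 (11616376 to 11616828) each stand alone. The last place holds nlp-25 (19606180 to 19608419) and nlp-26 (19613461 to 19614534), which are 5041 bp apart with grsp-1 between them. Coordinates are in the build ce11, which is the same assembly as WBcel235, and each of the 10 genes has 1 annotated transcript.

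The sequences printed first are those under the regions on which the results turn, read from the plus strand of the WBcel235 genome and cut where a transcript begins. Capitals mark GATA sites. The stretch upstream of nlp-31 belongs to the strongest pooled region of the family, and its pair of sites overlaps by 1 base. The 30 bases shown next lie a little farther on, in the 5′ UTR of nlp-31 and hold another pair within the same region.

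nlp-31 upstream, chrV:3979939-3980054: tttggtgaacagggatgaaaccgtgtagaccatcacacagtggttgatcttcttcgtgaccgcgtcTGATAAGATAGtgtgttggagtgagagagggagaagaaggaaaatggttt

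nlp-31 5′ UTR, chrV:3980076-3980105: caaaaagAGATAGtggAGATAAgaatatct

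The next 2 lie upstream of nlp-24. The nearer one had the largest signal of the nlp-24 window, and the farther one had the most GATA sites.

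nlp-24 nearer, chrV:11615974-11616223: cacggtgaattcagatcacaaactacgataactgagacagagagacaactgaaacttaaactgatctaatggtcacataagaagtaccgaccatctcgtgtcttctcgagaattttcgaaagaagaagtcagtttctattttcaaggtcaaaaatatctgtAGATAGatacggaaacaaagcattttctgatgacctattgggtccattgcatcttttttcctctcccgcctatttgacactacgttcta

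nlp-24 farther, chrV:11614894-11615143: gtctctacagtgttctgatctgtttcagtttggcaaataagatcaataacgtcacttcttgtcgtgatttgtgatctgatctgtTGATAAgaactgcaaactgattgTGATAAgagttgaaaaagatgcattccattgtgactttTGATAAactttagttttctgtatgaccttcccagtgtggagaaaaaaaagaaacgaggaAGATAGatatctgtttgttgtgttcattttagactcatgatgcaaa

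The region just upstream of nlp-26 held 3 sites at a low pooled signal, and the stretch just upstream of nlp-29 held none at a higher one. Both are shown for that contrast.

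nlp-26, chrV:19613193-19613442: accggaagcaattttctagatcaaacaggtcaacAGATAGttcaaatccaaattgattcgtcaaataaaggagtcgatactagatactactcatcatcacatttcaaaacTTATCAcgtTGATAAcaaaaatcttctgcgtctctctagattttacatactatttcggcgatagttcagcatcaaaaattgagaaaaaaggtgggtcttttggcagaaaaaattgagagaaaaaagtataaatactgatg

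nlp-29, chrV:3984217-3984424: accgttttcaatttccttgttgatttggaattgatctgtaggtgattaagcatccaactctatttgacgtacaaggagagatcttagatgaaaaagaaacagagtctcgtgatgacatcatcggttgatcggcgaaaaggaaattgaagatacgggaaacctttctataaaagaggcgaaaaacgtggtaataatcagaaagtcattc

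The last sequence is the strongest region near nlp-33, which lies downstream of that gene and upstream of T19C4.1.

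nlp-33 downstream, chrV:11149050-11149299: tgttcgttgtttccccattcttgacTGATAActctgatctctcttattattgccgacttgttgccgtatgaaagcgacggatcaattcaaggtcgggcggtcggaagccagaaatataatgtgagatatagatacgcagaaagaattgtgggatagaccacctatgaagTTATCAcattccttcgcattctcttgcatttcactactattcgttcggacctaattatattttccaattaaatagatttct

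The authors deposited 4 region lists in ce11. The optimal set held 253 peaks with signals of 42.6 to 174, and the pooled list, made from both replicates, held 30000 regions with signals of 13.5 to 174 and a median of 16.9. Per their labels the optimal set is thresholded, while the pooled list holds peaks and background together as input to that step. A pooled region outside the optimal set is therefore not by itself a called site of binding. The list of replicate 1 held 30000 regions (8.12 to 86.8, median 10.4) and that of replicate 2 held 15646 (8.71 to 91.4, median 10.4). Signal is a score the authors gave each region. The sources used here give neither its scale nor the read depths, so signals are compared within a list, and ranks count from the strongest region of a list. In every list the summit stood at the middle of the region, and the 253 optimal peaks were the pooled regions of rank 1 to 253.

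The 10 genes had 27 distinct pooled regions within 5 kb, of which 1 was an optimal peak. Replicate 1 listed 26 regions and replicate 2 listed 16. Of the 27, 8 lay at the cluster of 6 genes, 7 at nlp-33, 5 at nlp-24 and 7 at nlp-25 and nlp-26. Their summits fell between genes in 12 cases, in introns in 5, in coding exons in 8 and in UTRs in 2. These places were not counted over all pooled regions. For 15 of the 27 the nearest 5′ end of a protein-coding gene was that of a gene among the 10, and for the other 12 it was that of a neighbour. Over the 60146 bp examined this made 4.49 pooled regions per 10 kb, against 2.99 over the nuclear genome and 2.88 over chromosome V. The densities were 4.32 against 2.99 in replicate 1 and 2.66 against 1.56 in replicate 2. These windows were placed around genes, while the values for the genome and the chromosome take in all sequence. Counted per gene within 5 kb, the median number of pooled regions was 5 over the 10 genes and 4 over all protein-coding genes. It was 5.5 against 4 in replicate 1 and 3 against 2 in replicate 2.

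A region somewhere within 5 kb was the rule for worm genes, so its presence alone says little. All 10 genes had one in the pooled list, against 96.4% of all protein-coding genes. In replicate 1 the count was 10, against 96.8% of all genes. In replicate 2 it was 9, against 84.2%, and nlp-27 was the gene without one. Within 1 kb of the gene, 9 had a pooled region, against 75.4%, and nlp-30 had none. The strength of the regions separated the genes more than their presence did.

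The optimal peak lay within 5 kb of nlp-34, nlp-31, nlp-30 and nlp-29, so 4 of the 10 genes were near an optimal peak, against 3.24% of all protein-coding genes. These 4 share that peak and are not separate cases. Within 1 kb, 2 of them were left, nlp-31 and nlp-34, against 1.31% of all genes. Among the 253 strongest regions of replicate 2 the count was again 4, against 3.29%. In the same number of strongest regions of replicate 1 it was 1, nlp-33, against 2.92%. The replicates therefore placed different genes of the family within their strongest regions. In the pooled list the regions of rank 1 to 1000, a limit set after the data were seen, lay near 6 genes, against 11.2%. The 2 genes added were nlp-33 and nlp-24, each through a separate region. The one within 5 kb of nlp-33 lay nearest to the 5′ end of T19C4.1.

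**Figure D1:**
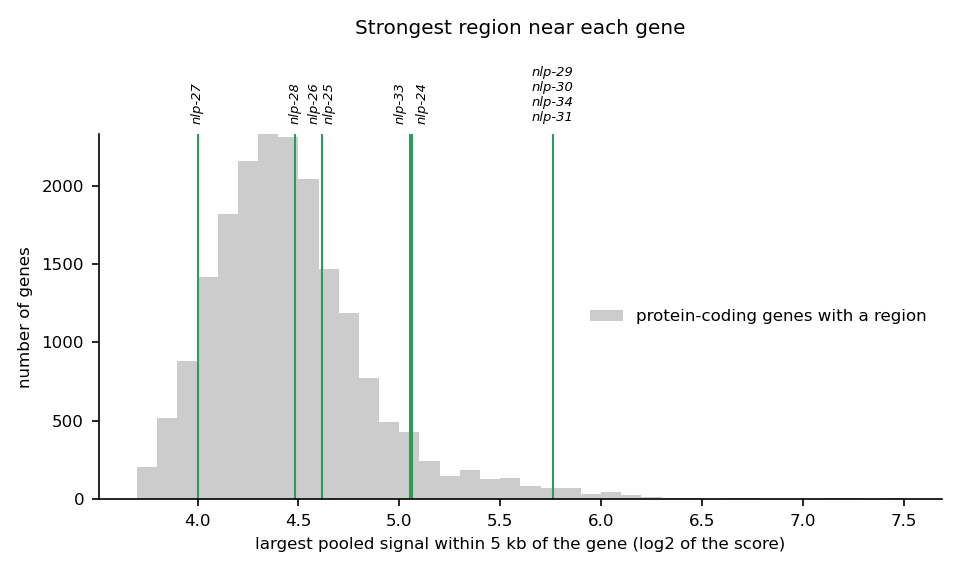
Histogram of the largest pooled signal within 5 kb of each protein-coding gene, on a log2 axis, with green lines at the 10 nlp genes. The lines run from 16 (nlp-27) to 54.2 (nlp-34, nlp-31, nlp-30 and nlp-29), and that of nlp-27 lies in the left flank of the histogram.

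The histogram of largest signals shows how far apart the 10 genes were. The median of the largest pooled signal within 5 kb was 33.3 over the 10 genes and 21.3 over all genes with a region, and the median percentile of the 10 among all genes was 92.9. In replicate 1 the medians were 21 and 13.4, with a median percentile of 93.9. In replicate 2 they were 17.3, over the 9 of the genes with a region, and 11.9, with a median percentile of 89.2 over all 10. Within 1 kb the pooled medians drew closer, to 24.5, over the 9 of the genes with a region, and 18.8. The median percentile over all 10 was then 84.5. In a percentile, a gene without a region counted as lowest. At 5 kb the order of the genes by percentile was nlp-34, nlp-31, nlp-30 and nlp-29 together at 98.7, nlp-24 at 93, nlp-33 at 92.8, nlp-25 and nlp-26 at 73.1, nlp-28 at 60.2 and nlp-27 at 11.7. Next to each other in that order, nlp-24 and nlp-33 had almost equal signals, 33.4 and 33.2. The 4 tied values, and the tie of nlp-25 with nlp-26, come from 1 shared region each. The values of nlp-28 and nlp-27 also come from a region nearer to another gene. They are the region at nlp-29 (22.4) and the one 543 bp upstream of nlp-28 (16).

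The nlp-31 region was the strongest of the family in the pooled list and in replicate 2. In replicate 1 a region downstream of nlp-33 was stronger. The peptide NLP-31 is known for activity against fungi in vitro. The summit lay on chromosome V at 3980064, 9 bp into nlp-31 and in its 5′ UTR, since the coding sequence begins 123 bp after the 5′ end. Its signal was 54.2 in the pooled list, 22.4 in replicate 1 and 31.9 in replicate 2. Those values ranked 94 of 30000, 344 of 30000 and 55 of 15646, so it stood near the top of all 3 lists. The summit of replicate 2 was at the pooled position and that of replicate 1 was 47 bp away, just upstream of the gene. The gene nlp-34 runs the other way on the far side of the same gap, and the summit lies upstream of the coding sequence of both. Its own nearest region, 416 bp upstream of nlp-34, had a pooled signal of 19.9 and a replicate 1 signal of 10.5, and replicate 2 listed none within 100 bp.

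**Figure D2:**
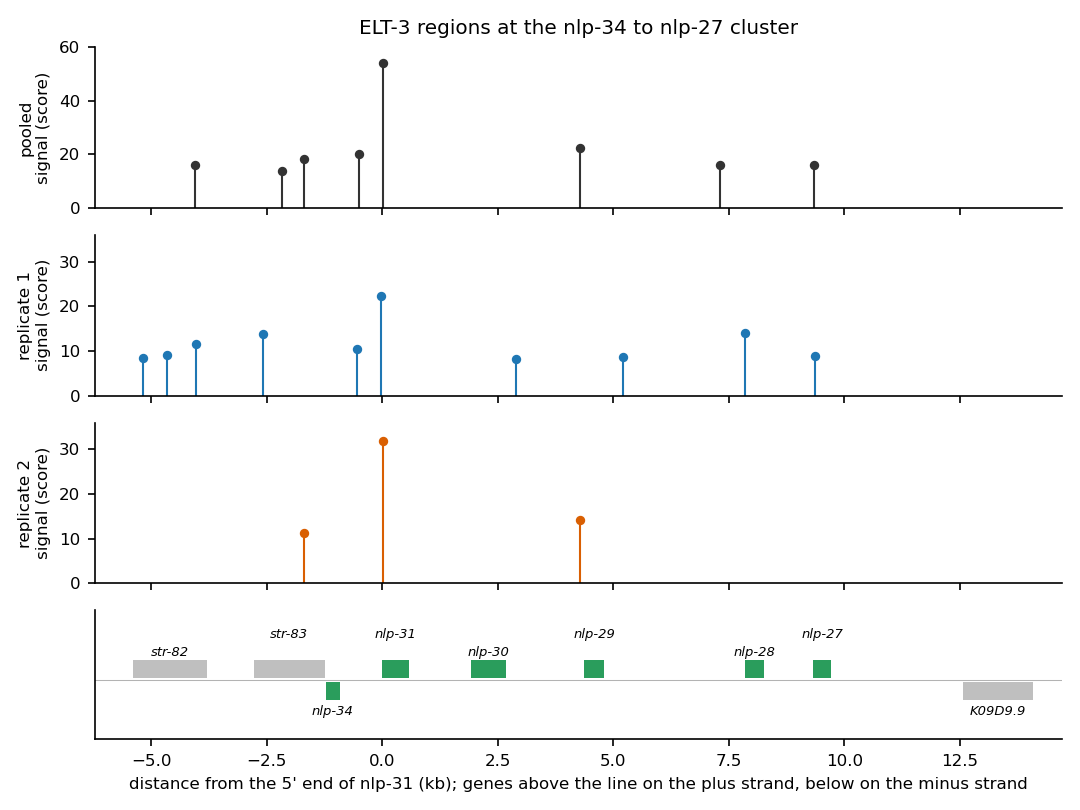
Map of the cluster of 6 nlp genes, with each region drawn as a line at its summit, its height giving the signal (score) in the pooled list, replicate 1 and replicate 2, against distance from the 5′ end of nlp-31 in kb. The 6 genes are green and neighbours grey; the tallest line in each panel stands at nlp-31, with signals of 54.2, 22.4 and 31.9.

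Along the rest of the cluster the signals were lower than at nlp-31, as the map of the 6 genes shows. The gene nlp-29, the reporter of fungal infection and wounding, had a summit 83 bp upstream of its 5′ end with a pooled signal of 22.4 (rank 4200). Replicate 2 listed it at 14.1 (rank 1919), and replicate 1 had no region within 100 bp. At nlp-28 the pooled summit was 543 bp upstream with a signal of 16, and neither replicate listed it. Replicate 1 instead had a region 7 bp downstream of the nlp-28 5′ end, with a signal of 14 (rank 4425), which had no pooled partner. At nlp-27 a summit 26 bp downstream of the 5′ end had a pooled signal of 15.8 (rank 18920) and a replicate 1 signal of 8.77, and replicate 2 listed nothing within 5 kb of the gene. The gene nlp-30 had no pooled region of its own within 1 kb. Replicate 1 listed 1 region there, 971 bp downstream of its 5′ end, with a signal of 8.14 that ranked 29864 of 30000. Within this cluster, then, the one region of rank under 1000 stood at nlp-31, and no region nearest to any of the other 5 genes was listed in both replicates.

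Outside the cluster the strongest region nearest to one of the 10 genes lay at nlp-24. This gene encodes peptides that have also been linked to feeding behaviour during starvation. Its summit 277 bp upstream had a pooled signal of 33.4 (rank 599), 11.4 in replicate 1 (rank 11013) and 17.3 in replicate 2 (rank 714). A second summit 824 bp upstream had signals of 21.1, 12.7 and 11.3, and was also listed in both replicates. The remaining one, 1357 bp upstream, had a pooled signal of 21.9 and was the strongest of the nlp-24 window in replicate 1, at 19.6 (rank 696). Replicate 2 listed none within 100 bp of it, and had a region 1576 bp upstream of nlp-24 with a signal of 12.9. The replicates thus differed in which of the upstream regions of nlp-24 was the strongest.

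At nlp-33 the region nearest the gene and the strongest region of its window were different ones. A summit 42 bp downstream of the nlp-33 5′ end had a pooled signal of 26.4 (rank 1751), with 16.6 in replicate 1 (rank 1789) and 9.42 in replicate 2 (rank 11589). The strongest summit of the window lay 1829 bp downstream of that 5′ end and 530 bp upstream of T19C4.1. Its pooled signal was 33.2 (rank 613) and its replicate 1 signal 26.3 (rank 162 of 30000), and replicate 2 listed none within 100 bp. This region, which ranked among the first 253 of replicate 1, was thus absent from the list of replicate 2 at that place. Other summits of the window lay nearest to the folate transporter gene folt-1 (pooled signal 15.4), to C06H2.7 (19.8), to T19C4.24 (20) and to the chemoreceptor gene srg-39 (24.8). The srg-39 region was listed in both replicates, at 9.8 and 11.

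**Figure D3:**
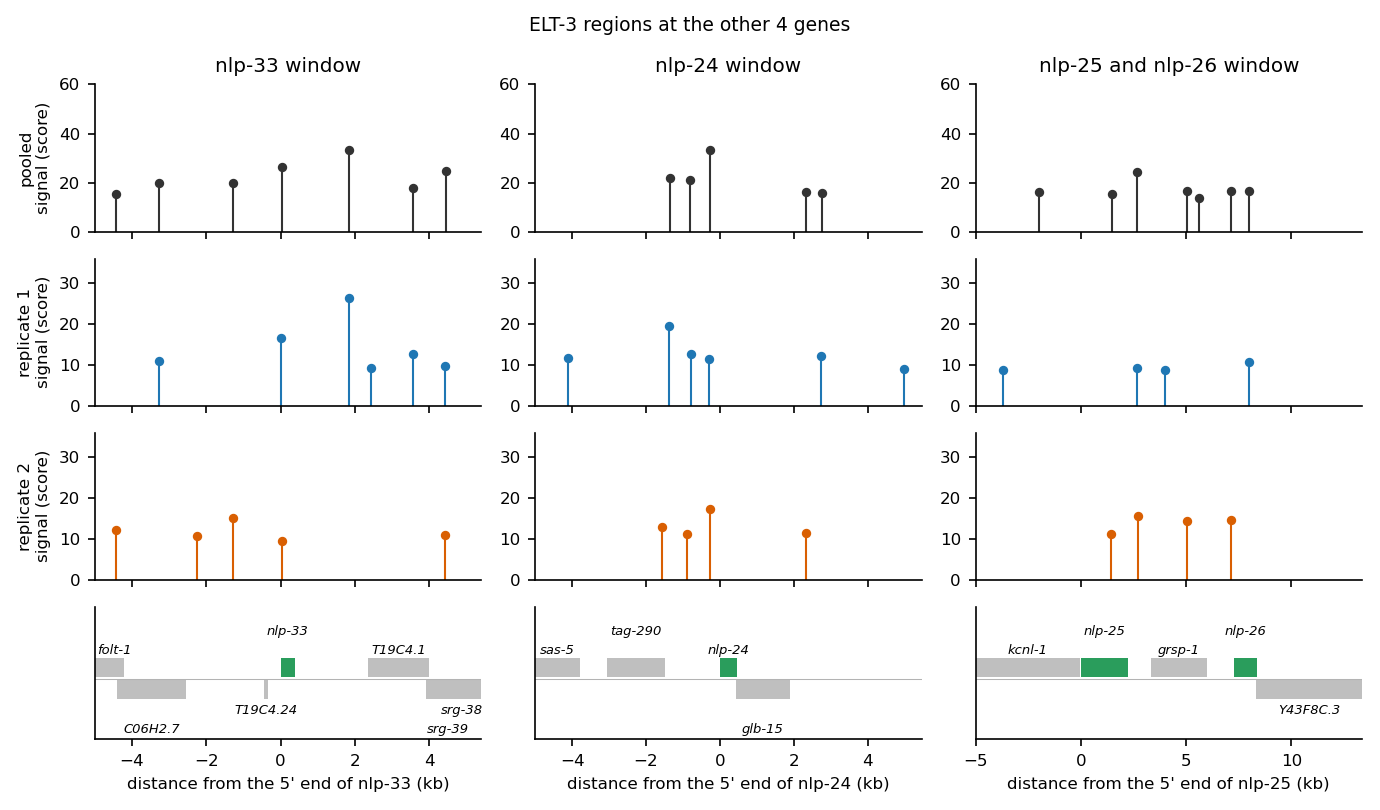
Maps of the windows of nlp-33, nlp-24, and nlp-25 with nlp-26, drawn like the cluster map, with signal (score) against distance in kb from the 5′ end of the named gene. The tallest pooled lines are 33.2 downstream of nlp-33, 33.4 just upstream of nlp-24 and 24.5 between nlp-25 and grsp-1.

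The window of nlp-25 and nlp-26 had lower signals. Its strongest pooled summit, with a signal of 24.5 (rank 2651), lay 643 bp upstream of grsp-1, which is named as a glycine-rich secreted protein gene. It had 9.28 in replicate 1 (rank 21411) and 15.7 in replicate 2 (rank 1114). A summit 143 bp upstream of nlp-26 had a pooled signal of 16.7 (rank 15507) and 14.5 in replicate 2 (rank 1649), and replicate 1 listed none within 100 bp. The nearest pooled summit to the 5′ end of nlp-25 was inside the gene, 1490 bp downstream, at 15.4. The values of replicate 2 ranked higher than those of replicate 1 at the first of these places, and the second was listed in replicate 2 alone.

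The 5 kb limit left few regions at its edge. The outermost pooled regions inside it lay 4046 bp (signal 24.8) and 4421 bp (15.4) from nlp-33. The nearest ones beyond it lay 5545 bp from nlp-25 (14.2) and 5662 bp from nlp-26 (19.6).

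The replicates were then set side by side at all 27 pooled regions. A summit within 100 bp was listed in replicate 1 for 15 and in replicate 2 for 14. Both replicates listed 6 of the 27, against 15% of all pooled regions. Another 9 were in replicate 1 alone, 8 in replicate 2 alone and 4 in neither. Shares over all pooled regions were not taken for the counts in a single list or in neither. The 6 listed in both lay at nlp-31, at nlp-33 itself, near srg-39, at nlp-24 (2 regions) and near grsp-1. A missing match means that no summit of that list lay within 100 bp, which is not the same as unbound, and the list of replicate 2 was the shorter one.

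**Figure D4:**
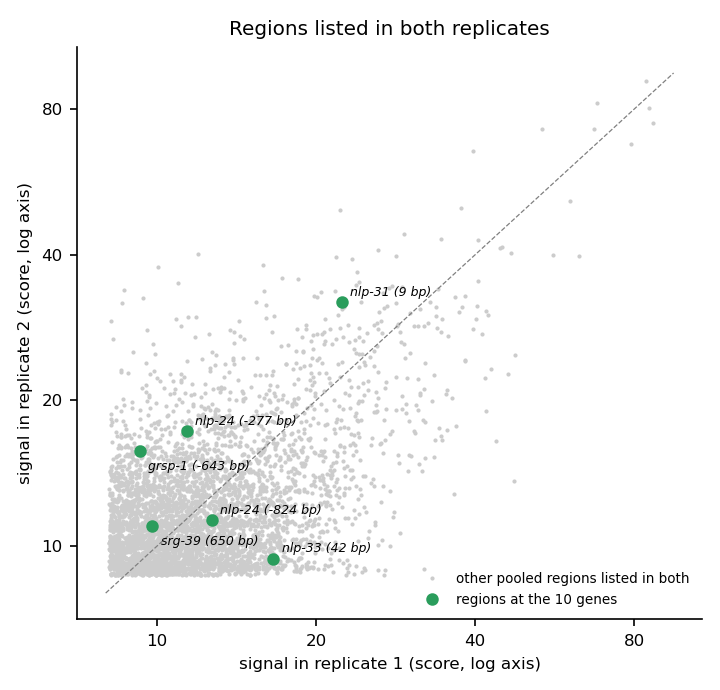
Signal in replicate 1 against signal in replicate 2 (scores, both axes logarithmic) for pooled regions listed in both, with the 6 regions at the nlp genes in green, labelled by nearest gene and distance from its 5′ end, and equal scores dashed. The nlp-31 region (22.4 and 31.9) lies apart from the other 5, which lie among the bulk of the grey points.

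In the plot of the replicates against each other the nlp-31 region was the one of the 6 with a signal above 20 in both. By rank within its own list, nlp-24 (277 bp upstream) stood at 11013 in replicate 1 and 714 in replicate 2, and nlp-33 at 1789 and 11589. With 2 replicates, the spread of any single signal could be given only as these pairs of values.

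GATA sites were then counted at the summits. Of the 27 pooled regions, 10 held at least 1 site within 50 bp of the summit (37%, 95% exact binomial interval 19.4 to 57.6), against 21.6% of all pooled regions. The interval includes the share over all regions, covers counting error only, and treats neighbouring regions as separate. In windows centred 500 bp to either side, 16 of 54 held a site (29.6%), against 20.6% beside all pooled regions. The share was thus also the higher one there. Some of these side windows overlap the summit window of a neighbouring region, as at nlp-31 and upstream of nlp-24. They therefore count some of the summit sites again and do not describe only sequence outside the regions. In replicate 1 the count was 7 of 26 (26.9%, 11.6 to 47.8), against 21.4%. In replicate 2 it was 7 of 16 (43.8%, 19.8 to 70.1), against 23.6%. Of the pooled summits close to a 5′ end of the 10 genes (1000 bp before it to 200 bp after it), 5 of 9 held a site, against 23.1% of all pooled regions so placed at any protein-coding gene.

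Regions with a site had the larger median pooled signal, 21.5 over 10 against 16.7 over the 17 without one. Over all pooled regions the medians were 17.2 and 16.8. All 3 regions with a signal over 30 held a site, against 40.6% of all pooled regions over 30 and 44.3% of the optimal peaks, and this limit was set after the data were seen. The number of sites varied between the regions. The nlp-31 summit had 2 sites within 50 bp, and the nlp-24 summit 277 bp upstream had 1. The nlp-24 summit 1357 bp upstream had 3 and the nlp-26 summit 2, with pooled signals of 21.9 and 16.7. The summits at nlp-29 and nlp-33, with pooled signals of 22.4 and 26.4, had 0, as the printed nlp-29 stretch shows. A match is a run of letters and was not shown here to be bound.

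**Figure D5:**
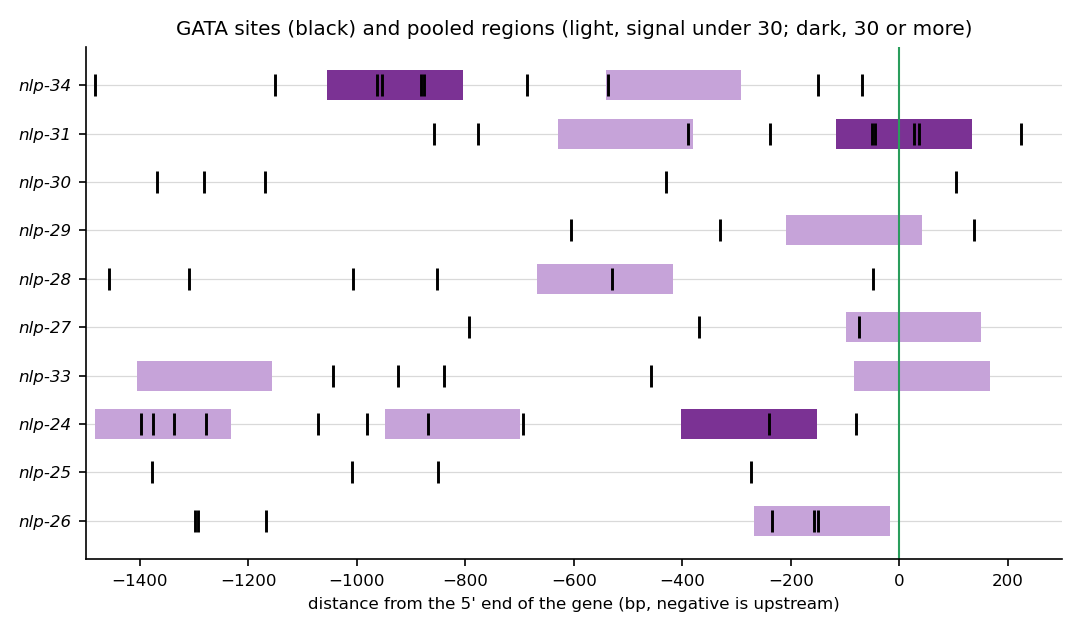
Positions of GATA sites (black ticks) and pooled regions (bars of 250 bp, dark where the signal is 30 or more) relative to the 5′ end of each gene, in bp along its own strand. At nlp-31 4 ticks fall inside the dark bar at the 5′ end, while the bars at the 5′ ends of nlp-29 and nlp-33 hold none; the dark bar drawn for nlp-34 is the same nlp-31 region.

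The positions of the sites differed between the genes, as the plot of sites around the 5′ ends shows. From 250 bp before to 50 bp after the 5′ end, 6 of the 10 genes held a site, against 54.5% of all protein-coding genes. The gene nlp-31 held 5, which stood at percentile 99.6 of all genes. By the word GATAA it held 2 in the same stretch, as did nlp-26, at percentile 76. The 5 sites of nlp-31 by the longer word began at -239, -50, -45, 28 and 37 bp from its 5′ end, and the last 2 lie in the 5′ UTR. The gene nlp-26 held 3 (percentile 93), nlp-34 and nlp-24 held 2 each, and nlp-28 and nlp-27 held 1 each. In nlp-30, nlp-29, nlp-33 and nlp-25 there was none in this stretch. Over the 1000 bp before the 5′ end all 10 genes held at least 1, against 89.9% of all genes, with a mean of 3.6 sites against 2.62. Over the 500 bp before it all 10 did too, against 71.4%. In the 1000 bp stretch the 6 sites of nlp-31 lie in the gap it shares with nlp-34. They are also among the 8 sites of nlp-34, so the mean of 3.6 counts them for both genes. With the shorter word GATAA the order turned, with a mean of 2.4 in the 1000 bp against 2.8 over all genes and of 0.7 near the 5′ end against 0.916. So nlp-31 had the strongest pooled region and, by the longer word, the most sites at its 5′ end. Over the other genes the count of sites and the signal were not in the same order.

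The sequence of the regions was mostly unique. The share of 32-base words in a region that occur once in the genome was 100% for 24 of the 27 and at least 92.2% for the others.

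Related genes were counted in the same way, by the largest pooled signal within 5 kb. The caenacins, another family of glycine-rich epidermal peptides, number 11, and their median was 26.6, against 33.3 for the 10 nlp genes and 21.3 for all genes. None of the 11 was near an optimal peak, against 3.24% of all genes. Near a region of rank 1 to 1000 were 2 (18.2%), against 11.2% of all genes, namely cnc-8 (32.7) and cnc-10 (30.3), followed by cnc-1 (26.6). The other 61 nlp genes, which mostly encode neuropeptides, had a median of 21.2 over the 58 with a pooled region. None of the 61 was near an optimal peak, and 2 (3.28%) were near a region of rank 1 to 1000, nlp-4 (33.8) and nlp-40 (30.7), followed by nlp-21 (29.3). The difference between these lists and the 10 genes was not tested, because neighbouring genes share regions and the genes were chosen with earlier results known.

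Genes of epidermal defence and osmotic signalling were counted too. Of 30, 8 (26.7%) were near a pooled region of rank 1 to 1000, against 11.2% of all genes. Near an optimal peak were 2 (6.67%), against 3.24% of all genes. The median of the 30 was 22.6, against 21.3 for all genes. The largest signals were near tir-1 (174), which encodes the SARM adaptor at the head of the p38 cascade, near elt-3 itself (140.2) and near nipi-3 (40.7), a Tribbles-like pseudokinase gene. A region within 5 kb can belong to a neighbour of the gene named. At elt-3 the endogenous gene and the transgene cannot be told apart. Of 4 annotated epidermal GATA factor genes, elt-3 was the one near an optimal peak, and egl-18 and elt-6 shared a region with a signal of 22.6 (rank 4055).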

How the data were processed

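ELT-3 ChIP-seq regions came as narrowPeak lists for each of 2 biological replicates, both pooled, and the optimal set. Each region has a signal, a score deposited by the authors whose scale is not stated. Per the deposited notes, replicate and pooled lists were made from alignments and a control file. The control experiment is not analysed here, and lists in ce10 were not used. The peak caller and the aligner are likewise not given in the sources used here. Replicate 1 has regions of 260 bp, the other lists of 250 bp.

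Summits were set against Ensembl release 115 genes with Python 3.11.15, pandas 2.3.3 and Biopython 1.88. GATA sites were searched on both strands of the RefSeq copy of WBcel235. Summits matched within 100 bp, and intervals are 95% exact binomial. Counting and matching were tested on simulated data. The genes and lists were chosen with earlier results of these data known. Named genes are the 10, the gene nearest each of their pooled regions, and up to 3 of each comparison list. Alternatives changed the window, match distance, word, stretch and list.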

Additional observations from a re-analysis of the deposited data

How the results depend on the processing

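Of 48 planned comparisons over 7 results, 37 stayed within the limit set for a change. It was 1.5 times for a count and the 95% interval for the share of regions with a GATA site. For the strongest signal it was the SD (3.96) between the strongest signals of the 2 replicates, which belonged to different regions. That SD is not the spread of the nlp-31 region, at 22.4 and 31.9. Some outcomes were fixed, so the tally does not measure robustness. Every window kept the nlp-31 region, 9 bp into the gene, and a wider window could not lower the 10 genes with a region. The number of distinct pooled regions was 14 within 1 kb and 43 within 10 kb of the genes, and 16 when the pooled list was cut to the length of the shortest list, against 27. Leaving out a replicate gave 16 to 26 regions, and the strongest signal was then 26.3 (replicate 1, downstream of nlp-33) to 31.9 (replicate 2, at nlp-31) against 54.2 at nlp-31, while the median signal of a whole list was 10.4 in either replicate and 16.9 pooled. Genes near an optimal peak numbered 2 within 1 kb and 1 with the strongest regions of replicate 1, against 4. With 50% of each replicate list, the strongest regions, 3 regions were in both replicates, against 6. All 10 genes held a GATA site in the 500 bp and in the 1000 bp upstream (71.4% and 89.9% of all genes), against 6 near the 5′ end. The share with a site at the summit ranged from 22.2% (within 25 bp) to 50% (regions within 1 kb). For these 2 settings no share over all pooled regions was taken, so they cannot be set against a background. In alternatives added after the data were seen, the strongest signal outside the cluster of 6 genes was 33.4, 6 genes were near the 1000 strongest pooled regions, and 6 of the 15 regions nearest to one of the genes (40%) held a site. Leaving out replicate 1 or replicate 2 also gave 9 to 10 genes with a region and 26.9% to 43.8% with a site. No paired analysis was possible because there is 1 group. Read depth was not given, so a region missing from a list was not detectable at an unknown depth.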
